A study of Mus musculus with 6 samples.

Results

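The 38 Hox genes of the mouse tables were followed along their 4 chromosomal clusters in RNA of small intestinal mucosa from Rbm47-IKO and wt mice. Members were every gene whose symbol is Hox followed by the cluster letter a, b, c or d and a number, which gave 38 of 38561 genes, with 11 in Hoxa, 10 in Hoxb, 9 in Hoxc and 8 in Hoxd. The 6 libraries were 3 pools per genotype on C57BL/6J, which by the labels each hold RNA of 3 mice of both sexes aged 8 to 12 weeks. The text of the study gives wider ranges for mice per pool and for age, and Xist, a female transcript, was low in wt pools 1 and 3. Rbm47-IKO mice carry floxed Rbm47 alleles and a Cre driven by the promoter of villin, which is active in gut epithelium and not in the muscle or connective tissue under it. The labels call the controls wt, while the methods of the study give Rbm47 fl/fl mice. The results of the study name jejunal mucosa as the tissue sequenced. Pooling hides the spread between mice, so an n of 3 counts pools, and no label says whether the pools were collected on separate days.

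Hox genes encode transcription factors that bind DNA through the homeodomain. Their order along a cluster matches the order in which they are used along the body axis, so low paralog numbers mark anterior and high numbers posterior regions. Most Hox genes of the gut are known from the mesenchyme, muscle and neurons around the epithelium, and the group 13 genes are known from the hindgut, with Hoxb13 expressed in distal colon, rectum and prostate. Genes of paralog groups 1 to 3 are called anterior here, those of groups 4 to 8 central and those of groups 9 to 13 posterior.

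Rbm47, the targeted gene (chromosome 5, 66016549 to 66173117, GRCm38), was not lower in the libraries labelled Rbm47-IKO. Its CPM (counts scaled for library depth) was 603, 625 and 620 in Rbm47-IKO pools 1 to 3 and 460, 450 and 472 in wt pools 1 to 3, so the labelled Rbm47-IKO pools were the higher ones (log2 fold change 0.42, SE, the standard error, 0.10, edgeR adjusted p = 0.0751). The study reports negligible Rbm47 mRNA and protein after the deletion, which these counts do not show, and the reason was not tested. Reads counted over a whole gene do not show whether a deleted exon is missing, and the pools are named by their labels throughout. Libraries held 31560320 to 38951830 counts. Of the 16425 genes past the expression filter, 443 (2.7%) passed the edgeR test at an adjusted p of 0.05, and this count was between 0 and 431 with 1 pool left out.

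Hoxb13 and Hoxc8 were the 2 members of the highest mean level per length over the 6 pools, Hoxb13 through the Rbm47-IKO pools alone, and each lies next to members with few or no counts. Their homeoboxes, the 180 bases that encode the 60 residues of the homeodomain, are shown with those of 2 such members, Hoxa13 as a gene of the same paralog group and Hoxc9 as the next gene on the chromosome. The sequences were read from GENCODE M21 transcripts on GRCm38, 5′ to 3′ on the strand of the gene, and each lies within the last exon of its transcript. Capitals mark the 15 bases that encode the residues WFQNR of the third helix, the part of the homeodomain that contacts the major groove of DNA.
Hoxb13 (chr11:96196020-96196199, plus strand): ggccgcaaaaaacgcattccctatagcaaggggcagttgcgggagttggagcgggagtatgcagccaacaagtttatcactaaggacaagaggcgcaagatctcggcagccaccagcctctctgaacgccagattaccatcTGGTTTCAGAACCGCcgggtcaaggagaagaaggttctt
Hoxa13 (chr6:52258928-52259107, minus strand): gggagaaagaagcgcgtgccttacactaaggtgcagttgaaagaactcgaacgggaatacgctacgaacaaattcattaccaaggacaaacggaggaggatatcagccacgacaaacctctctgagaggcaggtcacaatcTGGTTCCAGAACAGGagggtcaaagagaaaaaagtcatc
Hoxc8 (chr15:102992571-102992750, plus strand): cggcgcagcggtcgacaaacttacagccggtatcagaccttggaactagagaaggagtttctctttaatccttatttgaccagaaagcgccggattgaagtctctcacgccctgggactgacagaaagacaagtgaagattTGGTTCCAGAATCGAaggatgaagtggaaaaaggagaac
Hoxc9 (chr15:102983930-102984109, plus strand): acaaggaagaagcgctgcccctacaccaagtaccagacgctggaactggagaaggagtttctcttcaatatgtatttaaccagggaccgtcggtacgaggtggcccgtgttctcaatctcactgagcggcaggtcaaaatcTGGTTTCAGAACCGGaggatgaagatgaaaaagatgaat
The homeobox of Hoxb13 was identical to that of Hoxa13 at 68.9% of bases and closest to that of Hoxc13 (73.9%). That of Hoxc8 was identical to Hoxc9 at 64.4% and closest to Hoxb8 (80.0%). Over the 1 coding transcript read per gene, the longest identical run that Hoxb13 shared with another member was 17 bases, with Hoxa4, Hoxb7, Hoxb9 and Hoxc9 alike, and that of Hoxc8 was 26 bases, with Hoxb8. Among these transcripts the longest run of any pair was 52 bases, between Hoxa6 and Hoxb4. The gene models used for counting hold other transcripts too and overlap on the same strand for some pairs, among them Hoxa2 with Hoxa3 (11.02% of the exon bases of Hoxa2) and Hoxc5 with Hoxc10 (5.37% of those of Hoxc5). In the annotation, no exon base of Hoxb13, Hoxc8, Hoxa4 or Hoxa5 was shared with another gene on either strand.

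Hox genes were read at low levels in this mucosa. Their counts summed to 656, 770 and 1015 in Rbm47-IKO pools 1 to 3 and to 245, 1054 and 516 in wt pools 1 to 3, which is 7.21 to 31.1 CPM per pool for all 38 genes together. Of the 38 members, 7 had no count in any pool, 14 had 3 counts or fewer over all 6 pools, and 18 passed the expression filter. The filter keeps genes with enough counts in at least 3 pools, and the 20 others were not tested. In bulk RNA, fewer cells of a type and less RNA per cell cannot be told apart.

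Levels were highest in the middle of the clusters and dropped at the step from group 8 to group 9. On the RPKM scale, which is CPM per kilobase of exon, the mean levels of the members summed to 0.239 for paralog group 2 and 0.384 for group 3. Groups 4, 5 and 6 stood at 0.916, 1.13 and 1.08, group 7 at 0.626 and group 8 at 2.57, nearly all of it Hoxc8. Group 9 stood at 0.0600, and groups 10, 11 and 12 held 2, 1 and 1 counts in all. Group 13 stood at 1.71 in the Rbm47-IKO pools and 0.137 in wt, nearly all of it Hoxb13, which did not pass the test (edgeR adjusted p = 0.0708).

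In Hoxa, Hoxc and Hoxd most of the drop lay between 2 neighbouring genes. In the Hoxa cluster Hoxa7 had 112 counts over the 6 pools and Hoxa9, 1245 bases further on, had 0, as did Hoxa10 and Hoxa11, while Hoxa13 had 1. In the Hoxc cluster Hoxc8 had 1143 counts and Hoxc9, 5522 bases away, had 4. Hoxd8 had 99 counts and Hoxd9, 4406 bases away, had 9, with 1, 1, 0 and 0 counts for Hoxd10, Hoxd11, Hoxd12 and Hoxd13. Over the 6 pools Hoxb fell more gradually, with 145 counts for Hoxb7, 55 for Hoxb8 and 18 for Hoxb9, but its pools differed. Hoxb8 had 2, 8 and 22 counts in Rbm47-IKO pools 1 to 3 and 3, 17 and 3 in wt pools 1 to 3. Hoxb9 had 3, 5 and 0 against 8, 0 and 2. It was thus above Hoxb8 in pool 1 of either genotype, at few counts, and at 0 in the pools where Hoxb8 was highest. Hoxb was also the only cluster with a high member at its far end. Hoxb13, beyond a gap of 74009 bases, had 425 counts, most of them in the Rbm47-IKO pools. At these depths 3 counts, taken as the smallest level to be told from none, stood for 0.0790 to 0.0919 CPM, and lower levels were not detectable.

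**Figure D1:**
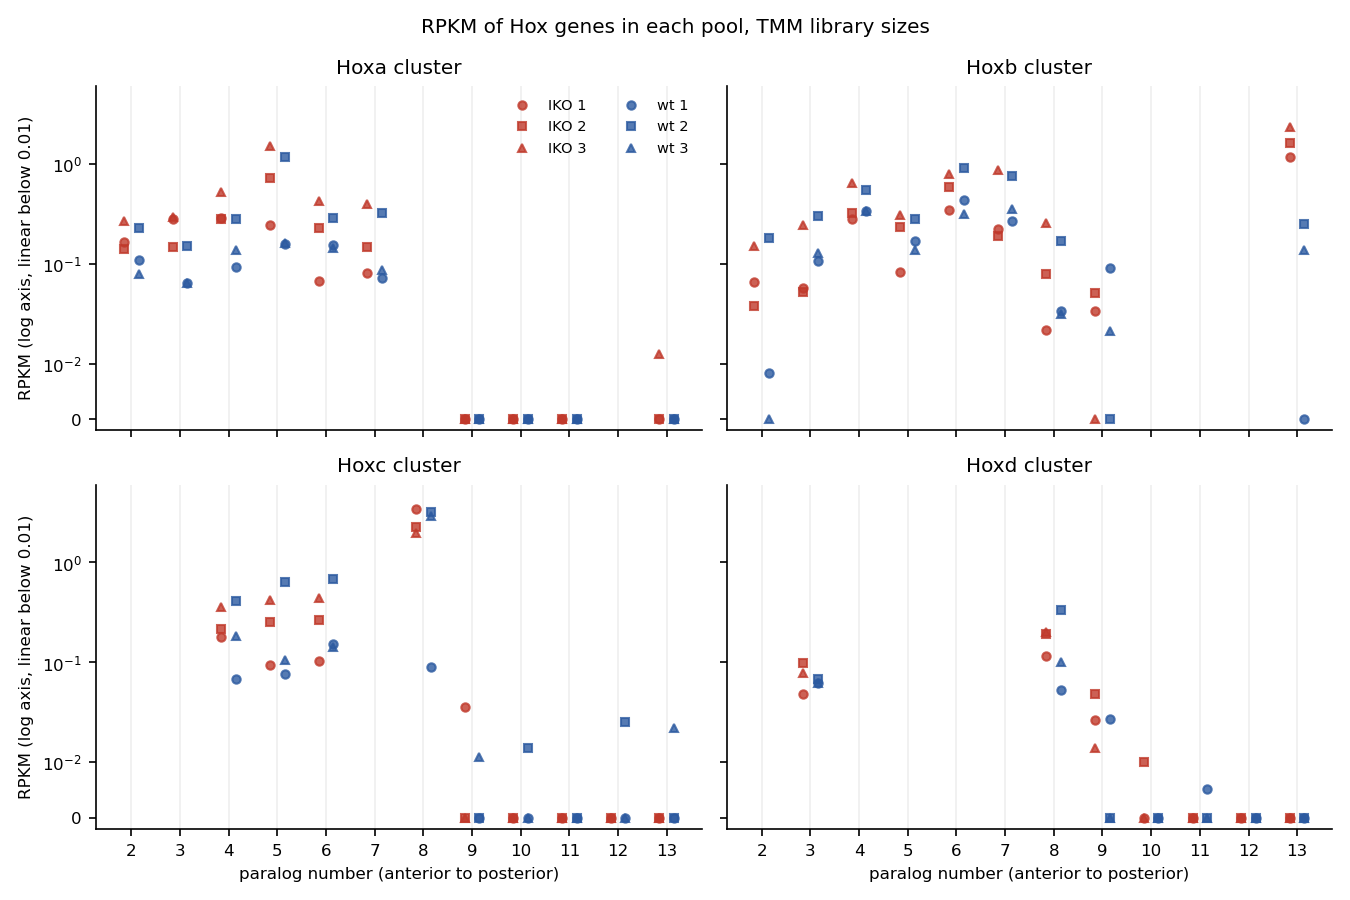
RPKM (vertical, log axis that is linear below 0.01) of the Hox genes of groups 2 to 13 against their paralog number, 1 panel per cluster, with red for pools labelled Rbm47-IKO and blue for wt pools and 1 symbol per pool number. Posterior members sit at or near 0 from group 9 on, apart from Hoxb13, whose 3 red points lie between 1.18 and 2.35 RPKM above blue points of 0, 0.251 and 0.137.

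Over the 6 pools Hoxc8 had the highest mean level, 2.30 RPKM (SD 1.21), followed by Hoxb13 (0.919, SD 0.946), Hoxa5 (0.660, SD 0.575), Hoxb6 (0.562, SD 0.239), Hoxb7 (0.443, SD 0.294) and Hoxb4 (0.413, SD 0.149). From Hoxb13 downwards, each of these differed from its neighbour in the order by less than the SD of either gene. The next 11 members lay between 0.148 RPKM (Hoxb3) and 0.298 (Hoxc6), and these also did not differ from their neighbours beyond that spread. The second place of Hoxb13 came from the Rbm47-IKO pools (mean 1.71 RPKM). In wt its mean of 0.129 RPKM was 16th of the 38 members, while Hoxc8 was highest in both genotypes. Lower levels over the 6 pools were those of Hoxb8 (0.0984), Hoxb2 (0.0738), Hoxd3 (0.0697), Hoxb9 (0.0329) and Hoxd9 (0.0193).

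Hoxb13 (chromosome 11, 96194316 to 96197447, plus strand), the posterior gene of the hindgut and prostate, was read in every pool labelled Rbm47-IKO. Counts were 90, 134 and 169 in Rbm47-IKO pools 1 to 3 and 0, 21 and 11 in wt pools 1 to 3. The groups did not overlap, and the lowest Rbm47-IKO pool had over 4 times the count of the highest wt pool. Mean CPM was 3.77 ± 1.30 (SD, n = 3 pools) against 0.285 ± 0.277 (SD, n = 3). The log2 fold change was 3.69 (SE 0.85) and missed the threshold of 0.05, with an edgeR adjusted p of 0.0708. Counting error alone (exact 95% Poisson intervals, which treat reads as independent molecules) gave 72.4 to 111 counts for the lowest Rbm47-IKO pool and at most 32.1 for the highest wt pool. For the 0 in wt pool 1 the same interval reached 3.69 counts. The detection floor of 3 counts stood for 0.0882 CPM there.

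Whether Hoxb13 passed depended on the setting. DESeq2 (adjusted p = 0.0289), edgeR without an expression filter (0.0329), edgeR with the smooth muscle genes as a covariate (0.00587), and edgeR without wt pool 1 (0.0294) or without wt pool 2 (0.0473) put it past the threshold. The adjusted p of the other 9 alternatives was between 0.0591 and 0.255. Over all 14 alternatives the log2 fold change was between 3.13 and 4.66.

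As a share of all Hox counts of a pool, Hoxb13 made up 13.7%, 17.4% and 16.7% in Rbm47-IKO pools 1 to 3. In wt pools 1 to 3 it made up 0%, 1.99% and 2.13%. The lowest of the former had an exact (Clopper-Pearson) 95% interval of 11.2% to 16.6% and the highest of the latter one of 1.07% to 3.78%, both for counting error only. The other 15 posterior members together had 8, 10 and 2 counts in Rbm47-IKO pools and 11, 2 and 5 in wt pools, so their sum did not follow Hoxb13.

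Hoxc8 (chromosome 15, 102990622 to 102994267, plus strand), which patterns the thoracic skeleton and the brachial spinal cord, differed more within wt than between genotypes. Counts were 271, 195 and 149 in Rbm47-IKO pools 1 to 3 and 7, 276 and 245 in wt pools 1 to 3. Wt pool 1 stood far below the 5 others, which lay between 4.56 and 7.83 CPM against 0.206 CPM in wt pool 1. Highest and lowest wt pool differed 35.3-fold, and the means of the genotypes 1.24-fold. The log2 fold change was 0.30 (SE 0.89, edgeR adjusted p = 0.924), and without wt pool 1 it was -0.26 (edgeR adjusted p = 0.759). Its share of all Hox counts was 41.3%, 25.3% and 14.7% in Rbm47-IKO pools and 2.86%, 26.2% and 47.5% in wt pools.

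**Figure D2:**
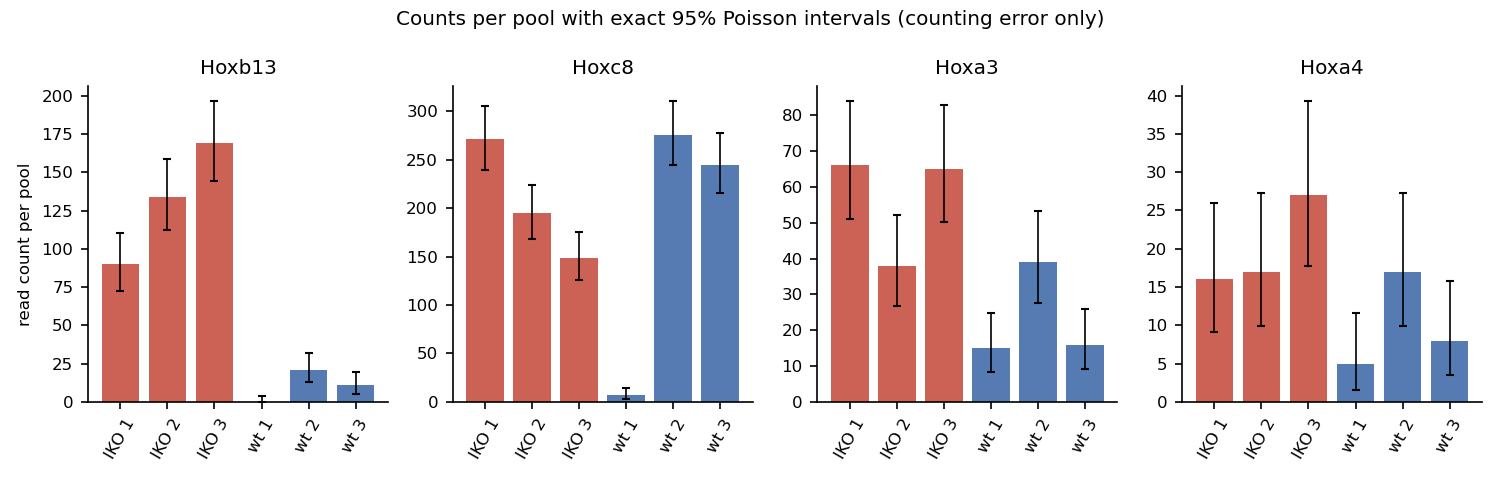
Read count per pool (vertical) of Hoxb13, Hoxc8, Hoxa3 and Hoxa4, with red bars for pools labelled Rbm47-IKO, blue bars for wt pools and exact 95% Poisson intervals for counting error. Hoxb13 bars of 90, 134 and 169 stand above wt bars of 0, 21 and 11, while for Hoxc8 wt pool 1, with 7 counts, stands apart from pools of 149 to 276.

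Anterior members were low throughout. Hoxa3 (chromosome 6, 52163359 to 52213339, minus strand), which is needed for the thymus and parathyroids, had 66, 38 and 65 counts in Rbm47-IKO pools 1 to 3 and 15, 39 and 16 in wt pools 1 to 3. The groups overlapped in 1 pair, Rbm47-IKO pool 2 and wt pool 2, with 38 and 39 counts. Its log2 fold change was 1.35 (SE 0.46, edgeR adjusted p = 0.191). Hoxa3 shares 3.91% of its exon bases with Hoxa2 on the same strand and 24.1% with antisense genes. The strand setting of the counting is not given in the sources used here. Its counts may therefore hold reads of those genes or miss reads of the shared bases, which was not tested.

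Hoxd3, which acts in the cervical vertebrae, had 11, 25 and 17 counts against 14, 17 and 15, and its wt pools lay inside the range of the Rbm47-IKO pools (log2 fold change 0.24, SE 0.39, edgeR adjusted p = 0.848). Of the other anterior members described here, Hoxa2 and Hoxb3 were tested, with a log2 fold change of 0.45 for Hoxa2 (edgeR adjusted p = 0.757) and of -0.61 for Hoxb3 (0.764). With 1 pool left out these ranged from 0.14 to 1.01 for Hoxa2 and from -1.67 to -0.012 for Hoxb3. Hoxb2 had 0 to 24 counts per pool, Hoxb1 had 1 count in all and Hoxd1 had none.

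Central members carried most Hox reads, and their pools overlapped for 12 of the 13 tested, where 11.7% of all genes had every Rbm47-IKO pool above and 11.6% every one below. Hoxa4 was the exception, with 16, 17 and 27 counts in Rbm47-IKO pools 1 to 3 and 5, 17 and 8 in wt pools 1 to 3. Rbm47-IKO pool 2 and wt pool 2 both had 17 counts, and the groups were apart only by the scaling (0.4488 against 0.4479 CPM), which is less than counting error. With library size as the only scaling they overlapped. The log2 fold change of Hoxa4 was 1.07 (SE 0.51, edgeR adjusted p = 0.356).

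Hoxa5, which acts in the lung and in gut mesenchyme, had 16, 51 and 92 counts in Rbm47-IKO pools 1 to 3 and 10, 84 and 11 in wt pools 1 to 3. Hoxa6 had 4, 15 and 24 against 9, 19 and 9, and Hoxb6, a gene of limb and trunk mesoderm, had 25, 46 and 53 against 31, 71 and 24. In each of these 3 genes Rbm47-IKO pool 3 and wt pool 2 were the highest of their genotype. The same held for Hoxb7, with 12, 11 and 44 against 14, 44 and 20 counts. Hoxc5 had 10, 30 and 43 against 8, 75 and 12, Hoxc6 had 9, 25 and 36 against 13, 65 and 13, and Hoxd8 had 11, 20 and 18 against 5, 35 and 10. The wt pool 2 value was above every Rbm47-IKO pool for Hoxb6, Hoxc5, Hoxc6 and Hoxd8. Log2 fold changes of these 7 genes were between -0.29 (Hoxc6) and 0.71 (Hoxa5), with edgeR adjusted p of 0.796 or more. The remaining 5 central members tested, Hoxa7, Hoxb4, Hoxb5, Hoxc4 and Hoxc8, had log2 fold changes of 0.03 to 0.36, and Hoxb8, which was not tested, had 2 to 22 counts per pool. Hoxd9, the posterior member that follows Hoxd8, had 2, 4 and 1 counts against 2, 0 and 0.

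Of the 18 Hox genes tested, 0 passed the edgeR adjusted threshold, against 2.7% of all genes tested. DESeq2 gave an adjusted p to 8 Hox genes and called 1, Hoxb13, beside 7.95% of all genes given one. With an unadjusted edgeR p under 0.05 there were 2, Hoxb13 (0.00283) and Hoxa3 (0.0205), beside 16.8% of all genes. Every Rbm47-IKO pool was above every wt pool for 2 of the 18, Hoxb13 and Hoxa4, beside 11.7% of all genes, and below for 0, beside 11.6%. The share above is near that of the whole table. A log2 fold change above 0 was found in 14 of the 18, beside 49.3% of all genes, and this count was 7 of 18 with smooth muscle genes as a covariate and between 6 of 18 and 19 of 20 with 1 pool left out. The median log2 fold change was 0.21, beside -0.0059 over all genes. It was 0.34 for the 4 anterior genes tested and 0.0831 for the 13 central ones. With 1 pool left out the median ranged from -0.20 (without Rbm47-IKO pool 3) to 0.92 (without wt pool 2) for all tested and, in the same 2 fits, from -0.29 to 0.86 for the central ones. It was also below 0 for both without wt pool 1 and with the muscle covariate, and for the central ones without wt pool 3, so its direction depended on the setting. Only members past the filter enter these counts, and with 3 pools against 3 an exact permutation test of a single gene cannot give a p below 0.1.

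**Figure D3:**
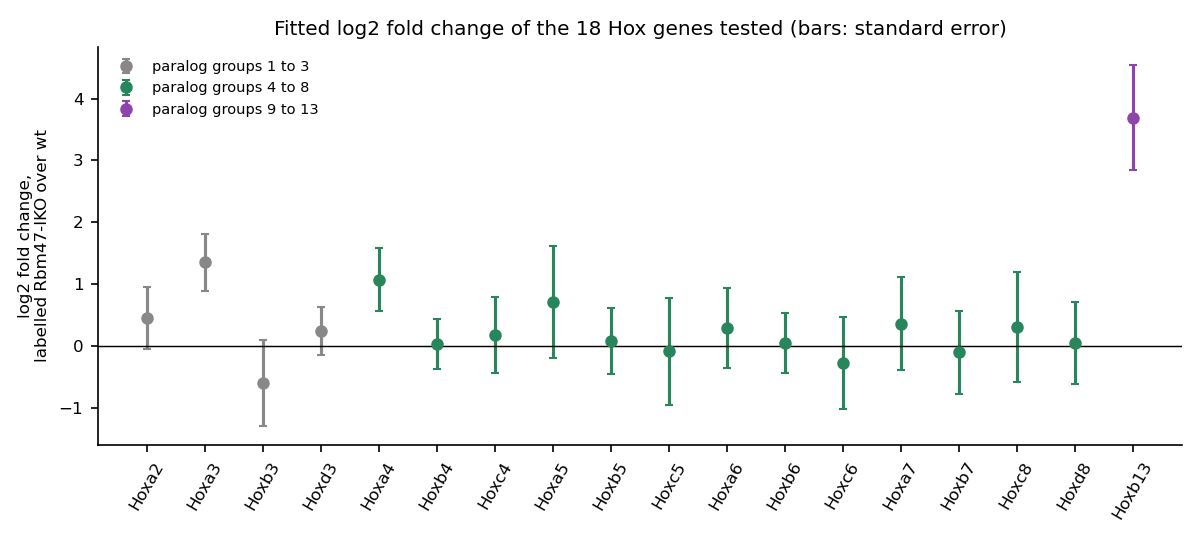
Fitted log2 fold change (vertical; pools labelled Rbm47-IKO over wt) of the 18 Hox genes tested, ordered by paralog number, with bars for the standard error and colours for the anterior, central and posterior classes. The 17 genes of groups 2 to 8 lie between -0.61 and 1.35, and Hoxb13 stands at 3.69.

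The spread of pools within a genotype was wide. The ratio of highest to lowest pool exceeded the ratio of the genotype means in both genotypes for 14 of the 18 Hox genes tested, beside 62% of all genes. For Hoxa4 it did so in wt alone, for Hoxd3 in the Rbm47-IKO pools alone, and for Hoxa3 in neither. For Hoxb13 it did not in the Rbm47-IKO pools (1.99-fold, against 13.2-fold between the means), and in wt it has no value because 1 pool was at 0.

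The same 2 pools were high for most members. Rbm47-IKO pool 3 and wt pool 2 were both above the other 4 pools for 13 of the 18 Hox genes tested, among them 11 of the 13 central ones, beside 12.3% of all genes tested. This pattern was defined after the values were seen. Summed over the 13 central members other than Hoxc8, CPM was 5.11, 8.87 and 16.6 in Rbm47-IKO pools 1 to 3 and 5.15, 16.3 and 5.52 in wt pools 1 to 3. The 2 high pools differed little from each other, although their genotype labels differ.

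Markers of tissue under the epithelium moved with these pools. The 10 smooth muscle genes, all of them detected in every pool, summed to 454.5, 724 and 3973 CPM in Rbm47-IKO pools 1 to 3 and to 114, 3235 and 378 in wt pools 1 to 3. Myh11, the heavy chain of smooth muscle myosin, had 143, 226 and 1383 against 44.8, 949.8 and 138 CPM. The 8 fibroblast genes summed to 179, 286 and 412 against 111, 531 and 181 CPM, and the 10 genes of enteric neurons and glia to 6.50, 7.42 and 26.9 against 8.71, 24.4 and 10.7 CPM. In all 3 lists Rbm47-IKO pool 3 and wt pool 2 were highest of their genotype. The 8 epithelial genes summed to 14419, 14786 and 12062 against 13430, 13939 and 14828 CPM, a much smaller spread. How much of the Hox values came from these tissues was not tested. A fit with smooth muscle as a covariate was made for each Hox gene tested. In that fit the median log2 fold change of these genes was -0.0954.

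Hoxc8 did not share that pattern. With 0.206, 7.27 and 6.72 CPM in wt pools 1 to 3, wt pools 2 and 3 were close to each other and wt pool 1, the pool with the fewest muscle reads, stood apart. Of the Rbm47-IKO pools it was highest in Rbm47-IKO pool 1 (7.83 CPM), a pool with few muscle reads, and lowest in pool 3 (4.56 CPM), the pool with most. Hoxb13 shared it in part. Rbm47-IKO pool 3 (5.18 CPM) and wt pool 2 (0.553 CPM) were highest of their genotype, but wt pool 2 was below every Rbm47-IKO pool. With smooth muscle as a covariate the log2 fold change of Hoxb13 was 3.49 (SE 0.50, edgeR adjusted p = 0.00587).

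**Figure D4:**
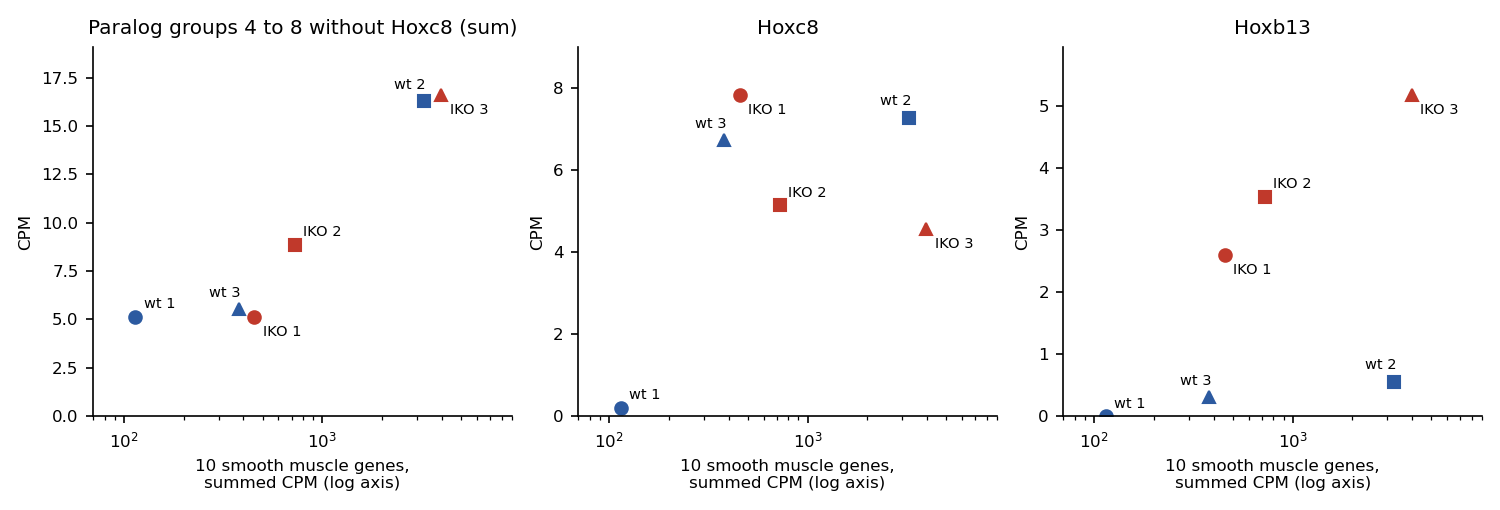
CPM per pool (vertical) of the 13 central Hox genes other than Hoxc8 summed, of Hoxc8 and of Hoxb13, against the summed CPM of 10 smooth muscle genes (horizontal, log axis), with 1 labelled point per pool, red for Rbm47-IKO and blue for wt. In the first panel Rbm47-IKO pool 3 and wt pool 2 stand together at 16.6 and 16.3 CPM, while in the Hoxb13 panel the 3 red points lie at 2.60, 3.54 and 5.18 CPM above blue points at 0.553 CPM or less.

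Regional markers of the gut were read beside the posterior gene. Gata4, a factor of the proximal small intestine, had 169, 181 and 154 CPM in Rbm47-IKO pools 1 to 3 and 108, 121 and 147 in wt pools 1 to 3 (log2 fold change 0.42, edgeR adjusted p = 0.17). Apoa4, an apolipoprotein of absorbing enterocytes in the same list, went the other way, with 3337, 3548 and 3198 against 4295, 8088 and 7903 CPM (log2 fold change -1.01, SE 0.25, edgeR adjusted p = 0.0802). Neither passed, and the other 7 proximal genes had log2 fold changes of -0.53 (Onecut2) to 1.79 (Pdx1).

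Of the 8 distal genes, 6 had a log2 fold change above 0, as had 7 of the 9 proximal genes, beside 49.3% of all genes. None of the 8 distal genes passed. Slc51a, a subunit of the basolateral bile acid exporter, had 444, 480 and 371 against 324, 259 and 261 CPM, with no overlap (log2 fold change 0.62, SE 0.15, edgeR adjusted p = 0.074). Fabp6, the bile acid binding protein of the ileum, had 31.7, 39.8 and 18.6 against 17.2, 3.98 and 2.55 CPM, higher in every Rbm47-IKO pool (log2 fold change 1.93, SE 0.67, edgeR adjusted p = 0.201). Slc10a2, the ileal bile acid transporter, had 17.2, 7.84 and 14.6 against 44.3, 3.399 and 7.05 CPM, with wt pool 1 the highest (log2 fold change -0.47, SE 0.84, edgeR adjusted p = 0.864). The other 5 distal genes had log2 fold changes of -0.0575 (Muc13) to 1.18 (Fgf15). Of the 9 proximal and 8 distal genes listed, all were tested and 0 passed, beside 2.7% of all genes. The median log2 fold changes were 0.17 for the proximal and 0.40 for the distal list.

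Of the 8 colon genes in the tables, 5 were tested and 0 passed, beside 2.7% of all genes. B3gnt7, a glycosyltransferase, had 64.8, 52.9 and 31.5 CPM in Rbm47-IKO pools and 17.4, 30.7 and 23.5 in wt pools, with no overlap (log2 fold change 1.06, SE 0.29, edgeR adjusted p = 0.113). Retnlb, a goblet cell protein, had 1.24, 2.59 and 0.337 against 0.265, 0.843 and 0.357 CPM, with overlap (log2 fold change 1.501, edgeR adjusted p = 0.37). Mettl7b and Slc37a2 had log2 fold changes of -0.26 and -0.0644. Car1, a carbonic anhydrase of colonocytes, had 0 counts in every pool and Aqp8, a water channel of the colon, at most 0.0792 CPM. Whether the length of gut sampled differed between pools was not tested.

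Of the 46 partners and regulators of Hox genes tested in 5 lists, 4 passed (8.7%), beside 2.7% of all genes, and the lists were chosen with earlier results of these data known. Of the 9 cofactors of the TALE class (Pbx, Meis and Pknox), which bind DNA together with Hox proteins, 0 passed the threshold (median log2 fold change 0.31). Meis1 had 1.85, 3.14 and 10.995 CPM in Rbm47-IKO pools and 1.38, 8.38 and 1.89 in wt pools, and Meis2 had 3.44, 4.81 and 11.6 against 1.74, 8.64 and 2.36. Both were highest in the same 2 pools as the central Hox genes. Of the ParaHox genes, relatives of the Hox clusters, Cdx2, which sets intestinal identity, had 266, 280 and 204 against 169, 161 and 176 CPM (log2 fold change 0.56, SE 0.14, edgeR adjusted p = 0.0835). Its groups did not overlap. Pdx1, a factor of duodenum and pancreas, had 0.578, 0.766 and 1.10 against 0.294, 0.105 and 0.302 CPM (log2 fold change 1.79, edgeR adjusted p = 0.11). Pools of Cdx1 overlapped (log2 fold change 0.0051), and 3 of the 6 ParaHox genes were not tested.

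Chromatin regulators keep posterior Hox genes silent or active. Of the 16 Polycomb genes, whose products hold Hox genes silent, 2 passed and both were higher in the libraries labelled Rbm47-IKO. Epop, a subunit that tunes the repressive complex PRC2, had 8.75, 10.5 and 6.06 CPM against 0.441, 1.32 and 1.21 (log2 fold change 3.09, SE 0.43, edgeR adjusted p = 0.0157). Rnf2, the ubiquitin ligase of PRC1, had 21.8, 22.6 and 19.6 against 14.4, 12.9 and 12.4 (log2 fold change 0.69, SE 0.12, edgeR adjusted p = 0.0348). The catalytic genes of PRC2, Ezh1 and Ezh2, had log2 fold changes of -0.0869 and 0.0816. Of the 8 Trithorax genes, which act against Polycomb, 1 passed, the H3K27 demethylase Kdm6b, with 121, 122 and 146 against 79.3, 82.9 and 88.3 CPM (log2 fold change 0.63, edgeR adjusted p = 0.0365). These 3 calls are 2 of 16 and 1 of 8 genes, beside 2.7% of all genes. The median log2 fold changes of these lists were 0.13 and 0.0819.

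Retinoic acid induces anterior Hox genes. Of its 14 listed genes, 10 were tested and 1 passed, beside 2.7% of all genes. Only Rdh10, an enzyme of retinaldehyde synthesis, passed, and it was lower in the libraries labelled Rbm47-IKO, with 19.4, 18.9 and 19.0 against 28.3, 33.3 and 36.7 CPM (log2 fold change -0.78, SE 0.12, edgeR adjusted p = 0.0245). Aldh1a1, a retinaldehyde dehydrogenase, had 240.4, 297 and 307 against 85.7, 217 and 101 CPM (log2 fold change 1.07, edgeR adjusted p = 0.154), with no overlap between the groups. Cyp26b1, which degrades retinoic acid, had 2.77, 3.49 and 2.60 against 1.06, 2.32 and 0.713 CPM (log2 fold change 1.11, edgeR adjusted p = 0.256). With each of the 6 pools left out in turn, Epop passed in 3 fits, Rdh10 in 2, Rnf2 in 1 and Kdm6b in 0. None of the 4 passed without Rbm47-IKO pool 1, without Rbm47-IKO pool 2 or without wt pool 3. Rdh10 was also lost without Rbm47-IKO pool 3, and Rnf2 without that pool or wt pool 2. Log2 fold changes moved little in these fits, between 2.74 and 3.35 for Epop, 0.65 and 0.76 for Rnf2, 0.54 and 0.68 for Kdm6b and -0.87 and -0.69 for Rdh10. The adjusted p of edgeR reached 0.102 for Epop, 0.218 for Rnf2 and 0.162 for Kdm6b and Rdh10, while the number of all genes passing was also lower in every such fit, down to 0 without Rbm47-IKO pool 2.

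Most other genes in or within 100 kb of the clusters were low, with 44 of the 47 listed under 1 CPM in every pool. Mtx2, a mitochondrial outer membrane protein encoded beyond Hoxd, was the highest, with 32.0, 29.0 and 24.5 CPM in Rbm47-IKO pools 1 to 3 and 34.7, 36.1 and 34.0 in wt pools 1 to 3. Lnpk, which shapes the endoplasmic reticulum, had 10.9, 10.3 and 11.6 against 13.5, 11.9 and 13.3 CPM, and Skap1, an adaptor of T cells, had 2.85 to 4.18 CPM. Mtx2 and Lnpk were lower in every Rbm47-IKO pool, with log2 fold changes of -0.29 (edgeR adjusted p = 0.282) and -0.24 (0.427). The gene 5730596B20Rik, antisense to Hoxa3, was higher in every Rbm47-IKO pool, with 0.895, 0.713 and 0.704 against 0.235, 0.659 and 0.521 CPM (log2 fold change 0.70, edgeR adjusted p = 0.485). Of the 47 genes, 9 were tested and 0 passed, beside 2.7% of all genes. Without overlap 1 was higher and 2 were lower, beside 11.7% and 11.6% of all genes. The noncoding RNAs of the posterior ends, Hottip, Hotair and Hoxa11os, had 0 counts in all pools, and the Hox genes beside them, Hoxa11, Hoxa13, Hoxc11 and Hoxc12, had 0, 1, 0 and 1. At the anterior end of Hoxa, Hotairm1 had 10, 22 and 22 counts in Rbm47-IKO pools 1 to 3 and 4, 24 and 8 in wt pools 1 to 3 (log2 fold change 0.65, edgeR adjusted p = 0.708). Hoxaas3, antisense to Hoxa3, had 12, 15 and 21 against 8, 15 and 6 counts (log2 fold change 0.78, edgeR adjusted p = 0.476). Ttll6, on the far side of Hoxb13, had 16, 19 and 14 against 3, 18 and 3 counts (log2 fold change 1.08, edgeR adjusted p = 0.486), and its pools overlapped where those of Hoxb13 did not. Evx1 and Evx2, homeobox genes at the posterior ends of Hoxa and Hoxd, had 1 and 5 counts in all.

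The pools also differed in sex composition and in traces of pancreas. Xist, transcribed from the inactive X chromosome of females, had 75.6, 258 and 40.3 CPM in Rbm47-IKO pools 1 to 3 and 1.09, 150.03 and 0.686 in wt pools 1 to 3, although the labels give both sexes for every pool. Wt pool 2 was thus apart from the other wt pools in Xist as well as in muscle genes and central Hox genes. The 5 exocrine pancreas genes summed to 17.1 CPM in Rbm47-IKO pool 3 and to 0.396 CPM or less in the other pools. The part of either in the Hox values was not tested.

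**Figure D5:**
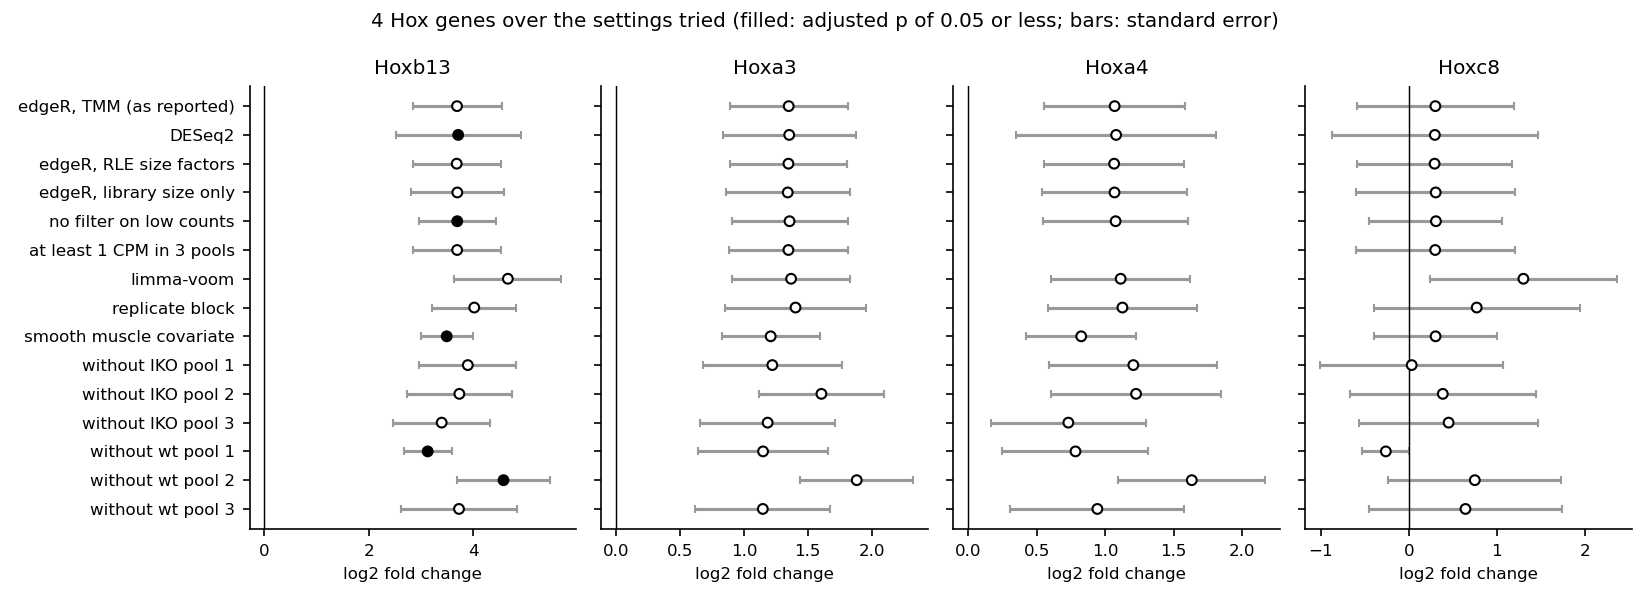
Log2 fold change (horizontal; pools labelled Rbm47-IKO over wt, bars for the standard error) of Hoxb13, Hoxa3, Hoxa4 and Hoxc8 under each setting tried, with filled circles for an adjusted p of 0.05 or less. Hoxb13 stays between 3.13 and 4.66 and is filled in 5 settings, Hoxa3 and Hoxa4 stay above 0 with no filled circle, and Hoxc8 lies below 0 without wt pool 1 (-0.26).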

How the data were processed

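RNA of small intestinal mucosa was sequenced after oligo(dT) selection as 3 pools of Rbm47-IKO and 3 of wt mice. Genotypes and pool numbers were taken from the sample labels. The authors deposited, per pool, an unnormalized read count for each of 38561 Ensembl genes. The submitters' processing notes name STAR 2.5.1a, Subread featureCounts 1.4.6-p5 and GRCm38, and the strand setting is not given in the sources used here. Oligo(dT) selection misses RNA without a poly(A) tail, and reads of paralogs can be lost or split where they match 2 genes. The authors also deposited CPM, made by dividing counts by the total of each table, and RPKM, made by dividing CPM by exon length. A recomputation from counts gave the same CPM and RPKM, which then were set aside.

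Symbols came from GENCODE M21 (GRCm38), which gave 36639 genes a symbol. TMM scaling and the quasi-likelihood test of edgeR 4.0.16 (R 4.3.3) were applied to genes past filterByExpr, with Benjamini-Hochberg adjustment over all 16425 genes tested and a threshold of 0.05. CPM and RPKM in the text use TMM library sizes and the deposited lengths. Alternatives were DESeq2 1.42.0, limma-voom (limma 3.58.1), RLE or library size scaling, no filter, at least 1 CPM in 3 pools, the pool number as a block, the mean log2 CPM of the smooth muscle genes (prior count 2) as a covariate, and leaving out each pool. Homeoboxes were read with Python 3.11.15 as the 60 codons around WFQNR in the longest coding sequence of each member. On simulated data the test recovered 75% of 200 genes of 16425 changed 4-fold, with 4.79% of calls false. That share is for the table as a whole and does not give the power at the low levels of the Hox genes. All 6 pools differed from one another and all were used.

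The members, the gene lists and the tests were chosen with earlier results of these data known. 1 member enters the counts and sums over all members and is not reported here by itself. Values per pool are given for Rbm47, Hoxa3, Hoxb13, members past the threshold or without overlap, the 3 members of the highest mean RPKM per cluster, and members of groups 10 to 13 with 10 or more counts. The markers and regulators named were picked from the lists after their values were seen.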

Additional observations from a re-analysis of the deposited data

How the results depend on the processing

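Under the 8 other settings and with each of the 6 pools left out, log2 fold changes of Hoxb13, Hoxa3, Hoxa4 and Rbm47 kept their sign wherever these genes were tested. The number of genes passing was 1132 with DESeq2, 692 with smooth muscle as a covariate and 100 with the replicate block, against 443. It ranged from 0 (without Rbm47-IKO pool 2, with 1729 genes at an unadjusted p under 0.05) to 431 with 1 pool left out. The labels do not say whether equal pool numbers mark a shared batch. Deviations of same-numbered pools had correlations of 0.41, -0.003 and -0.28, and those of differently numbered pools ranged from -0.54 to 0.48. With 3 pools per genotype these values cannot settle it. No Hox gene passed with the replicate block. Epop, Rnf2, Kdm6b and Rdh10 also missed the threshold with it (adjusted p = 0.053, 0.074, 0.076 and 0.071). Of the Hox genes, 1 passed (Hoxb13) with DESeq2, with no filter and with the covariate, and 0 to 1 with 1 pool left out. The number whose Rbm47-IKO pools all lay above wt was 1 with library size only and with the 1 CPM filter, which Hoxa4 does not pass, and 2 to 6 with 1 pool left out, beside 11.8% and 13.4% of all genes and 13.4% to 20.8% with 1 pool left out. The count of 6, of 18 tested, was without wt pool 2, where the share of all genes was 20.8%. The median of groups 1 to 3 was 1.35 with the 1 CPM filter (Hoxa3 alone). That of groups 9 to 13 was 0.32 with DESeq2 and 0.52 with no filter, where near-empty genes enter, and that of ParaHox genes was 0.28 with the 1 CPM filter. Medians with 1 pool left out ranged from -0.20 to 0.92 for all Hox genes tested, 0.17 to 0.65 for groups 1 to 3, -0.29 to 0.86 for groups 4 to 8 and 0.47 to 0.69 for ParaHox genes. Signs turned with the covariate for 7 Hox genes, Hoxa6 (-0.105), Hoxa7 (-0.0898), Hoxb4 (-0.25), Hoxb5 (-0.19), Hoxb6 (-0.19), Hoxc4 (-0.0644) and Hoxd8 (-0.10). They turned for 3 with limma-voom, Hoxc5 (0.28), Hoxb4 (-0.0511) and Hoxb5 (-0.0429), and for the same 3 with the replicate block (0.26, -0.0329 and -0.0049). With 1 pool left out they turned for 3 to 8 of the Hox genes tested. With 1 pool left out, log2 fold changes ranged from -0.051 to 2.36 for Hoxa5, -0.39 to 0.73 for Hoxa6, -0.24 to 0.60 for Hoxb6, -1.15 to 0.45 for Hoxb7, -0.26 to 0.75 for Hoxc8, -0.82 to 0.86 for Hoxc6, -0.64 to 1.48 for Hoxc5, -0.36 to 1.13 for Hoxd8 and -0.0192 to 0.48 for Hoxd3. Otherwise the cause was not tested. At these depths 3 counts were the smallest level told from none, and 20 members had too few counts for the test.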
